A study of Mus musculus with 6 samples.

Results

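The genes described here are 5 subunits of the GABA-A receptor (*Gabra2*, *Gabra3*, *Gabra5*, *Gabrb1* and *Gabrb2*) and a pair of chloride transporters, *Slc12a2* (NKCC1) and *Slc12a5* (KCC2). They were found by gene symbol, and these 7 members are 7 of the 59484 features in the deposited table. PolyA+ RNA was sequenced from the cortex at embryonic day 18.5 (E18.5). The libraries came from 3 wild-type and 3 *Sam68:Slm2* double knockout (dKO) embryos, all kept on C57BL/6 according to the methods. No promoter, Cre line or cell type limits the knockout in the labels or methods. Litter and sex of the embryos are not in the labels. *Khdrbs1*, which encodes Sam68, had between 7974 and 8436 normalized counts in wild-type libraries and between 114 and 197 in dKO libraries. *Khdrbs3*, which encodes SLM2, had between 12764 and 15215 in wild-type and between 6350 and 7060 in dKO libraries. A normalized count is the number of reads on a gene scaled by the size factor of the library. Libraries held between 31837922 and 40896541 reads on the listed features.

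GABA-A receptors are pentameric chloride channels opened by the transmitter GABA. Most are built from alpha and beta subunits together with a gamma or a delta subunit, and the alpha subunit sets much of the drug sensitivity and the place of the receptor in the membrane. In the cortex before birth the alpha2, alpha3 and alpha5 subunits prevail. Whether an open channel depolarizes or inhibits a neuron depends on the chloride gradient. NKCC1 carries chloride into the cell and KCC2 carries it out, and the rise of KCC2 during maturation turns GABA from a depolarizing into an inhibitory transmitter, which is the chloride switch.

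The start regions of 4 members are shown because these genes had the lowest unadjusted p-values in the comparison of the genotypes below. Each sequence runs from 250 bases before to 50 bases after an annotated transcription start, 5′ to 3′ on the strand of the gene. They are RefSeq sequences of build GRCm38.p6, taken at the start nearest to the gene boundary in the deposited table. Capitals mark matches, on either strand, to the letters TATAAA (the TATA box), CACGTG (an E-box), GGGCGG (a GC box) and GCATGCG (the core of the site of the transcription factor NRF1). *Gabra3* is shown from chrX:72656870-72657169 and *Gabra5* from chr7:57510010-57510309, both on the minus strand. *Gabrb1* is shown from chr5:71699682-71699981 and *Slc12a5* from chr2:164960596-164960895, both on the plus strand.
Gabra3: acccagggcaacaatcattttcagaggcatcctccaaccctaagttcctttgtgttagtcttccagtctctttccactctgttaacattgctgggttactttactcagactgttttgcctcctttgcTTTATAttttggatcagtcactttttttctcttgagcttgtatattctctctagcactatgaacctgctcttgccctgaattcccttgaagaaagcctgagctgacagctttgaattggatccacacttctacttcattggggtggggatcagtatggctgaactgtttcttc
Gabra5: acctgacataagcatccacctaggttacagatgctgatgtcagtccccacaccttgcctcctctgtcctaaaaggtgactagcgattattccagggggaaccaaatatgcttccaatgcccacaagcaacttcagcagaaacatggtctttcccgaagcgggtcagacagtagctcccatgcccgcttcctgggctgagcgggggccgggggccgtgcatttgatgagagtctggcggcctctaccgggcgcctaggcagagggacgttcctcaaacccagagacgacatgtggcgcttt
Gabrb1: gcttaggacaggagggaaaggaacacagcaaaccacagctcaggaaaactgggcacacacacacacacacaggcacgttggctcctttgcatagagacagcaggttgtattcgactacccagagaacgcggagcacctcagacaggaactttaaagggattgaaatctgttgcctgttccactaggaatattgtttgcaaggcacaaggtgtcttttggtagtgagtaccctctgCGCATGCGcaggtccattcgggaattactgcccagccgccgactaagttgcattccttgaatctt
Slc12a5: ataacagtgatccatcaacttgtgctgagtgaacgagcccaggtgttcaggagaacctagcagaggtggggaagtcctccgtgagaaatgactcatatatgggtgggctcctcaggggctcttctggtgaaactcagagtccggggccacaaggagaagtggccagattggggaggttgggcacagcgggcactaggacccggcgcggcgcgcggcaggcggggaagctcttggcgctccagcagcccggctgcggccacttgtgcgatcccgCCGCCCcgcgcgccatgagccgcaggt

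These start regions were unlike each other in base composition. That of *Gabra3* held 43% G and C and 0 CpG dinucleotides. That of *Slc12a5* held 63.7% G and C and 21 CpG dinucleotides. *Gabra5* (56.7% and 13) and *Gabrb1* (50.3% and 9) lay between them, and the median of 32851 mouse start regions of this length was 52.7% with 7 CpG dinucleotides. In *Gabrb1* the letters GCATGCG matched on both strands at 1 overlapping place. These matches began 15 and 14 bases before the start, and 3.58% of all start regions held such a match. The match to TATAAA in *Gabra3* began 123 bases before the start and lay on the opposite strand, a sequence found in 13.6% of all regions. *Slc12a5* had 1 match to GGGCGG, downstream of its start (35.7% of all regions). No region of the 4 held CACGTG, which 7.15% of all regions had.

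All 7 members passed the filter of a mean of at least 10 normalized counts. They were tested with the other features by limma on log2(normalized count + 1), with Benjamini-Hochberg adjustment over all 18970 features tested. With limma, 0 of the 7 members had an adjusted p under 0.05, against 0.1% of all features. Before adjustment, 4 of the 7 were lower in dKO cortex at p under 0.05 (*Gabra3*, *Gabra5*, *Gabrb1* and *Slc12a5*) and 0 were higher, where 6.58% of all features were lower at that level. edgeR gave the same counts of 0 and 4, against 0.1% of all features called. DESeq2 called 1 of the 7, *Gabra3*, against 1.07% of all features. In 3 of the 7, the genotypes did not overlap and dKO was lower, as in 8.48% of all features. The median log2 fold change of the members was -0.44, beside 0.004 over all features. In bulk RNA such as this, fewer cells of a type and less RNA per cell cannot be told apart.

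**Figure D1:**
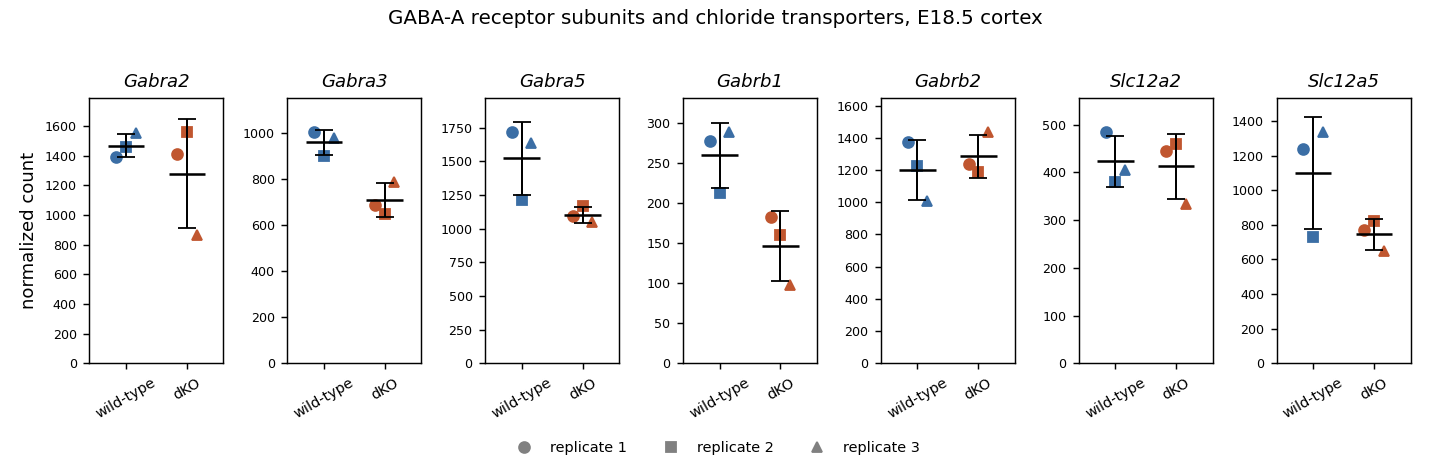
Normalized counts (vertical axes, each starting at 0) of the 7 members in the 3 wild-type and 3 dKO libraries. Symbols stand for replicates, horizontal bars for means and error bars for SD. The genotypes do not overlap for *Gabra3*, *Gabra5* and *Gabrb1*, and wild-type replicate 2 lies among the dKO libraries for *Slc12a5*.

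The libraries also differed in a way that the labels do not give. *Xist*, the RNA of the inactive X chromosome of female cells, had 2793 normalized counts in wild-type replicate 2 and 1661 in dKO replicate 3. It had between 0.951 and 12.3 in the other libraries. *Ddx3y*, a gene of the Y chromosome, was at 0 in the same 2 libraries and between 454 and 631 in the other 4. Each genotype thus had 1 library with *Xist* and 2 without, and both of these stood apart for several members. A fit with a term for these libraries was therefore added after the values had been seen. It called 79 features (0.416%) and 0 of the 7 members, with the same 4 members at an unadjusted p under 0.05. Whether these libraries also differed in litter or exact age is not given in the labels.

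The alpha3 subunit gene was the member with the smallest p. *Gabra3* (GSMG0042578, chromosome X from 72432676 to 72656919) had 1004, 899 and 980.2 normalized counts in wild-type replicates 1, 2 and 3. It had 689, 647 and 789.9 in the dKO replicates, so that all dKO libraries lay below all wild-type libraries. The mean was 961 ± 55.2 for wild-type and 709 ± 73.3 for dKO embryos (SD, n = 3 each), and thus 73.7% of wild-type. The log2 fold change was -0.44 in limma, with a standard error (SE) of 0.11 and an adjusted p of 0.248. DESeq2 gave the same log2 fold change with an adjusted p of 0.0417. Leaving out single libraries moved the limma value between -0.52 and -0.38, with adjusted p-values between 0.144 and 0.583. It was -0.19 between the *Xist* libraries and -0.57 between the other 4.

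*Gabra5* encodes alpha5, a subunit known from receptors outside the synapse that respond to ambient GABA. On chromosome 7 from 57407669 to 57510061 (GSMG0035996), it had 1715, 1211 and 1638 normalized counts in wild-type and 1093, 1168 and 1049 in dKO libraries. The genotypes did not overlap, but wild-type replicate 2 came close to dKO replicate 2. limma gave a log2 fold change of -0.45 (SE 0.13, 95% interval from -0.73 to -0.16, adjusted p = 0.318). Between the *Xist* libraries it was -0.21 and between the other libraries -0.57. With the term for the *Xist* libraries, the adjusted p was 0.113. The dKO libraries were much closer to each other (SD 60.5) than the wild-type libraries (SD 272).

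Transcripts of *Gabra2*, which encodes the alpha2 subunit found at the axon initial segment and at synapses, showed no such separation. It lies on chromosome 5 from 70959481 to 71095850 (GSMG0030599) and had 1394, 1461 and 1553 normalized counts in wild-type libraries. In dKO libraries it had 1415, 1559 and 865. Only dKO replicate 3 was low, and the other dKO libraries lay within or just above the wild-type range. The log2 fold change was -0.24 (95% interval from -0.67 to 0.19, adjusted p = 0.639 from limma), and it was 0.02 without dKO replicate 3. It was -0.75 between the *Xist* libraries and 0.01 between the other 4.

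Of the beta subunit genes, *Gabrb1* had the largest log2 fold change of the set and *Gabrb2* the only one above 0. *Gabrb1* (GSMG0029257, chromosome 5 from 71699950 to 72138916) had 278, 213 and 288 normalized counts in wild-type and 182, 160 and 97.4 in dKO libraries. The genotypes did not overlap, and the dKO mean was 56.5% of the wild-type mean. limma put the log2 fold change at -0.86 (SE 0.24, 95% interval from -1.38 to -0.33, adjusted p = 0.3). The value ranged from -1.04 without dKO replicate 1 to -0.59 without dKO replicate 3. It was -1.12 between the *Xist* libraries and -0.72 between the others, and the adjusted p with the term for them was 0.0642.

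*Gabrb2* encodes a beta subunit that is abundant in the adult brain. On chromosome 11 from 42419755 to 42632590 (GSMG0005055), it had 1377, 1226 and 1006 normalized counts in wild-type and 1235, 1187 and 1435 in dKO libraries. The ranges overlapped widely, and the log2 fold change was 0.10 (95% interval from -0.17 to 0.38, adjusted p = 0.769 from limma). It was -0.02 without wild-type replicate 3. The interval leaves room for a rise of 0.38 or a fall of 0.17 on the log2 scale.

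The chloride exporter was lower in dKO cortex before adjustment, and the importer was not. *Slc12a5* (GSMG0022165, chromosome 2 from 164960846 to 164999731) had 1238, 729 and 1335 normalized counts in wild-type libraries. It had 770.5, 820 and 647 in dKO libraries, so that wild-type replicate 2 lay inside the dKO range and the other wild-type libraries far above it. limma gave a log2 fold change of -0.52 (SE 0.21, 95% interval from -0.99 to -0.05). Its p-value of 0.0337 became 0.399 after adjustment. Without wild-type replicate 2 the log2 fold change was -0.79 with an adjusted p of 0.0571. With any other single library left out, it ran from -0.59 to -0.36, with adjusted p-values between 0.38 and 0.786. An unadjusted p under 0.05 was missed without wild-type replicate 1, wild-type replicate 3, dKO replicate 1 or dKO replicate 3. That level was also missed with the replicate number as a block and in limma without trend and robust. With the term for the *Xist* libraries, the 95% interval narrowed to -0.79 to -0.25, and the adjusted p was 0.12. The dKO library was the lower one within the *Xist* pair (-0.17), and both dKO libraries were lower among the other 4 (-0.69).

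*Slc12a2* (GSMG0018432, chromosome 18 from 57878678 to 57946821) had 484, 380.2 and 405 normalized counts in wild-type and 445, 459 and 334 in dKO libraries. Both genotypes covered nearly the same range. Its limma log2 fold change was -0.04 (95% interval from -0.39 to 0.30, adjusted p = 0.934). The sign turned to 0.10 without dKO replicate 3 and to 0.06 without wild-type replicate 1.

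The log2 ratio of *Slc12a5* to *Slc12a2* joins both transporters in 1 value per library. It was 1.35, 0.94 and 1.72 in the wild-type libraries and 0.79, 0.84 and 0.95 in the dKO libraries. Thus the exporter had more reads than the importer in every library, and wild-type replicate 2 lay just below the highest dKO library. Wild-type libraries averaged 1.34 ± 0.39 and dKO libraries 0.86 ± 0.08 (SD, n = 3 each). The difference of -0.48 did not pass an exact two-sided permutation test (p = 0.2, where 0.1 is the smallest value that 3 against 3 allow). Between the 4 libraries without *Xist*, the difference was -0.72. The *Xist* pair showed no such drop, with 0.94 in wild-type replicate 2 and 0.95 in dKO replicate 3. Per kilobase of exon, there were between 2.81 and 4.83 *Slc12a5* counts for each *Slc12a2* count in wild-type, and between 2.54 and 2.84 in dKO libraries.

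**Figure D2:**
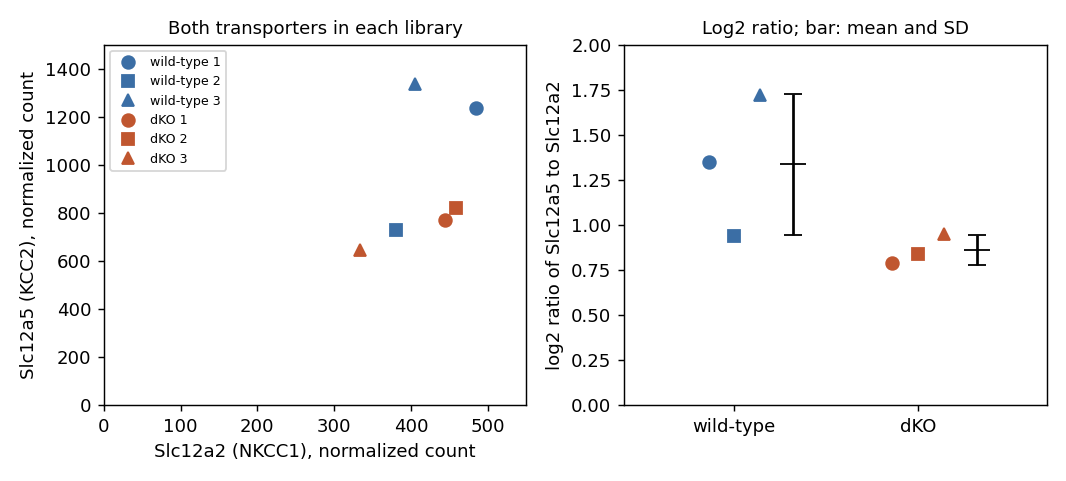
Left, normalized counts of *Slc12a2* (horizontal axis) and *Slc12a5* (vertical axis) in each library. Right, the log2 ratio of *Slc12a5* to *Slc12a2* per library, with mean and SD. The ratio of wild-type replicate 2 (0.94) falls beside the dKO libraries (0.79 to 0.95), and the other wild-type libraries lie higher (1.35 and 1.72).

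Levels of different genes were compared as normalized counts per kilobase of summed annotated exon (GENCODE M21), which can misjudge genes with unused long exons. In wild-type cortex, *Gabra5* was the highest member with 511 ± 91.3 counts per kilobase, followed by *Gabra3* with 245 ± 14.1. *Gabra2* (192 ± 10.4) and *Gabrb2* (189 ± 29.3) differed by less than their spread, and *Slc12a5* (148 ± 43.7) overlapped *Gabrb2* in its range. *Slc12a2* (38.7 ± 4.97) and *Gabrb1* (18.8 ± 2.96) were the lowest (SD, n = 3 throughout). In dKO cortex the order began with *Gabra5* at 371 ± 20.3, and *Gabrb2* (202 ± 20.7) stood above *Gabra3* (181 ± 18.7) and *Gabra2* (168 ± 47.9). The ranges of these last 3 genes overlapped. *Slc12a5* (100 ± 11.9), *Slc12a2* (37.8 ± 6.27) and *Gabrb1* (10.6 ± 3.18) kept their order.

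Summed over the 5 subunits, there were 1252, 1035 and 1183 counts per kilobase in wild-type libraries and 935, 960 and 900 in dKO libraries. *Gabrb1* made up 1.6%, 1.48% and 1.76% of this sum in wild-type and 1.41%, 1.2% and 0.783% in dKO libraries. *Gabrb2* made up 17.3%, 18.6% and 13.4% in wild-type and 20.8%, 19.4% and 25.1% in dKO libraries. For both shares the genotypes did not overlap, in opposite directions. The mean share of *Gabrb2* was 5.33 percentage points higher in dKO cortex (exact permutation test, p = 0.1, or 0.25 after adjustment over the 5 shares). The shares of *Gabra2*, *Gabra3* and *Gabra5* overlapped between the genotypes. A share depends on all 5 genes, so a higher share of *Gabrb2* goes with the lower counts of the others, while its own count overlapped between the genotypes.

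**Figure D3:**
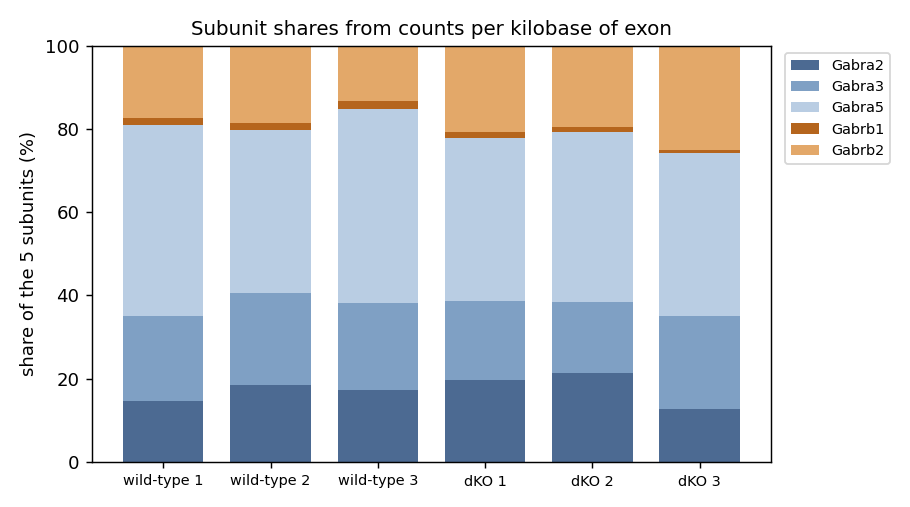
Share of each of the 5 subunits (vertical axis, percent) in their summed counts per kilobase of exon, for each of the 6 libraries. *Gabra5* holds between 39.2% and 46.6% in every library, and *Gabrb2* holds between 19.4% and 25.1% in dKO against 13.4% to 18.6% in wild-type libraries.

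The genome holds 14 further GABA-A subunit genes, of which 9 passed the filter. By limma 0 of the 9 had an adjusted p under 0.05, and 2 were lower at an unadjusted p under 0.05, where 6.58% of all features were. DESeq2 called 1 of them, against 1.07% of all features. The log2 fold change was below 0 in 8 of the 9, as in 49.4% of all features, with a median of -0.23. The gamma1 gene *Gabrg1* had 157, 66.6 and 179 normalized counts in wild-type and 58.1, 63.8 and 27.8 in dKO libraries. The genotypes barely failed to overlap, since wild-type replicate 2 was close to the dKO libraries. At a log2 fold change of -1.37 (SE 0.42), the adjusted p was 0.335 from limma and 0.0379 from DESeq2. With the term for the *Xist* libraries it was called by limma as well (adjusted p = 0.0388), and it was lower in the *Xist* pair (-1.23) and among the other libraries (-1.45). *Gabrq*, which encodes theta, was at most at 78 normalized counts (34.2, 38.7 and 78 in wild-type, 29, 33.5 and 9.28 in dKO libraries; log2 fold change -1.13, adjusted p = 0.432 from limma).

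*Gabra4*, an alpha subunit gene, had 232, 162 and 249.9 normalized counts in wild-type and 172, 246 and 152 in dKO libraries (log2 fold change -0.18, adjusted p = 0.772 from limma). The gamma3 gene *Gabrg3* had 178, 146 and 140.3 in wild-type and 159.7, 122 and 115 in dKO libraries (-0.23, adjusted p = 0.664). Both overlapped between the genotypes. *Gabra6*, *Gabre*, *Gabrp* and *Gabrr1* had a mean under 10, and *Gabrr3* was at 0 in all 6 libraries.

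Many subunit genes lie beside other subunit genes on the chromosome. The chromosome 5 cluster of *Gabrg1*, *Gabra2*, *Gabra4* and *Gabrb1* had log2 fold changes of -1.37, -0.24, -0.18 and -0.86 in this order along the chromosome. On chromosome 7, *Gabrg3* and *Gabra5* had -0.23 and -0.45. *Gabra3* and *Gabrq* on chromosome X had -0.44 and -1.13. Neighbours within a cluster thus differed in size of the log2 fold change, and no difference between neighbours was tested.

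**Figure D4:**
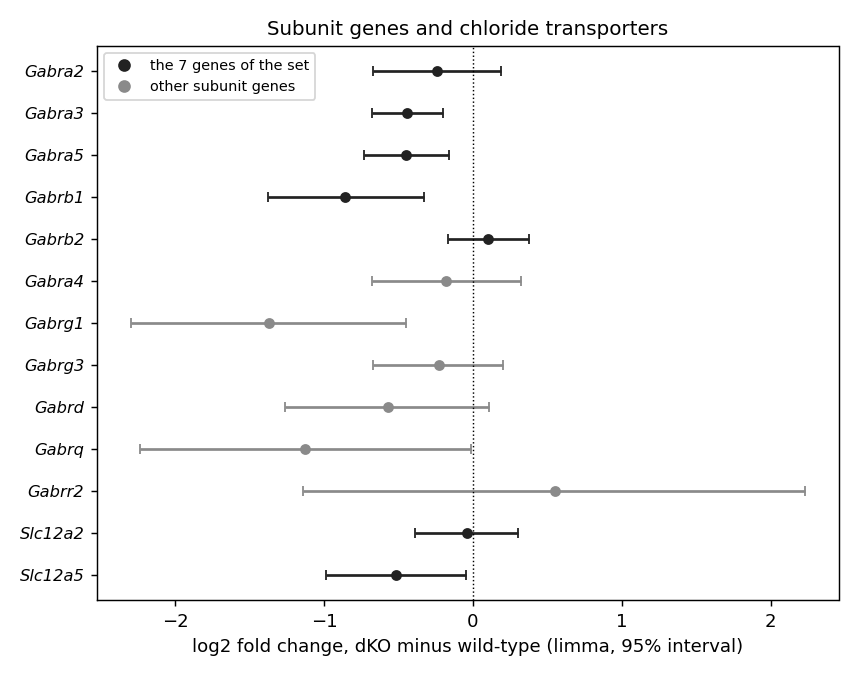
Log2 fold changes (dKO minus wild-type, limma, horizontal axis) with 95% intervals for the 7 members (black) and 6 other tested subunit genes (grey). The intervals of *Gabra3*, *Gabra5*, *Gabrb1*, *Slc12a5*, *Gabrg1* and *Gabrq* lie below 0.

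Around the receptor, 7 lists of pathway genes with 88 genes were examined, of which 86 had a row of their own and 75 passed the filter. None of the 75 had an adjusted p under 0.05 by limma, and edgeR called 0. At an unadjusted p under 0.05, 11 were lower and 0 higher, where 6.58% of all features were lower. DESeq2 called 2 (*Gabrg1* and *Slc4a10*), against 1.07% of all features. Among 8 tested genes of GABA synthesis, transport and breakdown, 2 were lower before adjustment. *Slc6a11* encodes GAT3, a GABA transporter of glia, and had 1838, 1333 and 1704 normalized counts in wild-type and 1143, 1333 and 1075 in dKO libraries. Wild-type replicate 2 and dKO replicate 2 had the same rounded value, and the log2 fold change was -0.45 (adjusted p = 0.318 from limma). *Slc6a13*, which encodes GAT2, was near the filter, with 20.9, 12.9 and 78.9 in wild-type and 1.81, 10.5 and 4.64 in dKO libraries (-2.35, adjusted p = 0.34).

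Genes of the GABA-producing cells themselves were not called by limma, and their intervals were wide. The synthesizing enzymes *Gad1* (log2 fold change -0.15) and *Gad2* (0.14), and the vesicular transporter *Slc32a1* (-0.05) overlapped between the genotypes. Their adjusted p-values from limma lay between 0.769 and 0.942. *Slc32a1* had 1474, 1316 and 2203 normalized counts in wild-type and 1467, 1992 and 1315 in dKO libraries. Of the genes that break GABA down, *Abat* had a log2 fold change of -0.16 and *Aldh5a1* of 0.24. The summed level of 16 interneuron and ganglionic eminence markers was 25694 to 32271 in wild-type libraries against 23663 to 30230 in dKO libraries. Of the 15 tested, 1 was lower at an unadjusted p under 0.05 and 0 higher, a share near the 6.58% of all features.

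Of 22 tested genes for clustering and trafficking of GABA-A receptors, 2 were lower before adjustment and 0 higher, a share near the 6.58% of all features. *Slitrk3*, an adhesion protein of inhibitory synapses, had 1927, 1879 and 2058 normalized counts in wild-type and 1647, 1603 and 1392 in dKO libraries. The genotypes did not overlap for *Slitrk3*, at a log2 fold change of -0.34 and an adjusted p of 0.291 from limma. The scaffold gene *Gphn* had a log2 fold change of -0.01 and the adhesion gene *Nlgn2* of 0.07. The median of the list was 0.03.

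Among 16 tested other chloride transporters and channels, 4 were lower before adjustment, against 6.58% of all features. *Slc4a10*, a sodium-driven bicarbonate transporter of neurons, had 609, 391 and 549 normalized counts in wild-type and 330.3, 313 and 307 in dKO libraries. No library of one genotype reached the other, and the log2 fold change was -0.68 (adjusted p = 0.243 from limma and 0.0146 from DESeq2). The anion exchanger gene *Slc4a3* (-0.24), the potassium-chloride cotransporter gene *Slc12a4* (-0.41) and the channel gene *Clcn2* (-0.36) were the others, with adjusted p-values between 0.369 and 0.423. *Slc12a7*, which encodes the related KCC4, had 195, 235 and 178 in wild-type and 258, 265 and 246 in dKO libraries (0.34, adjusted p = 0.436).

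Among 11 regulators of the chloride transporters, 1 was lower before adjustment and 0 higher, a share near the 6.58% of all features. This gene, *Grik2*, encodes a kainate receptor subunit that binds KCC2. It had 1540, 1396 and 1740 normalized counts in wild-type and 1198, 1224 and 1137 in dKO libraries (log2 fold change -0.39, adjusted p = 0.268 from limma). The kinases that act on both transporters had log2 fold changes of 0.07 for *Wnk1*, 0.11 for *Wnk2*, 0.07 for *Wnk3*, -0.40 for *Wnk4*, -0.02 for *Stk39* (SPAK) and 0.07 for *Oxsr1* (OSR1). All of these kinase genes overlapped between the genotypes, and *Wnk4* was at most at 86.6 normalized counts. *Ppp1r1b*, which encodes the phosphatase inhibitor DARPP-32, had 0.17 (adjusted p = 0.599). Of 5 tested GABA-B genes and 4 tested glycine receptor and transporter genes, 0 had an unadjusted p under 0.05. *Kctd16* (-0.80) and *Gabbr2* (-0.24), and *Glrb* (-0.17) and *Slc6a9* (-0.20), had the smallest p-values of these lists, with adjusted values between 0.503 and 0.656.

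**Figure D5:**
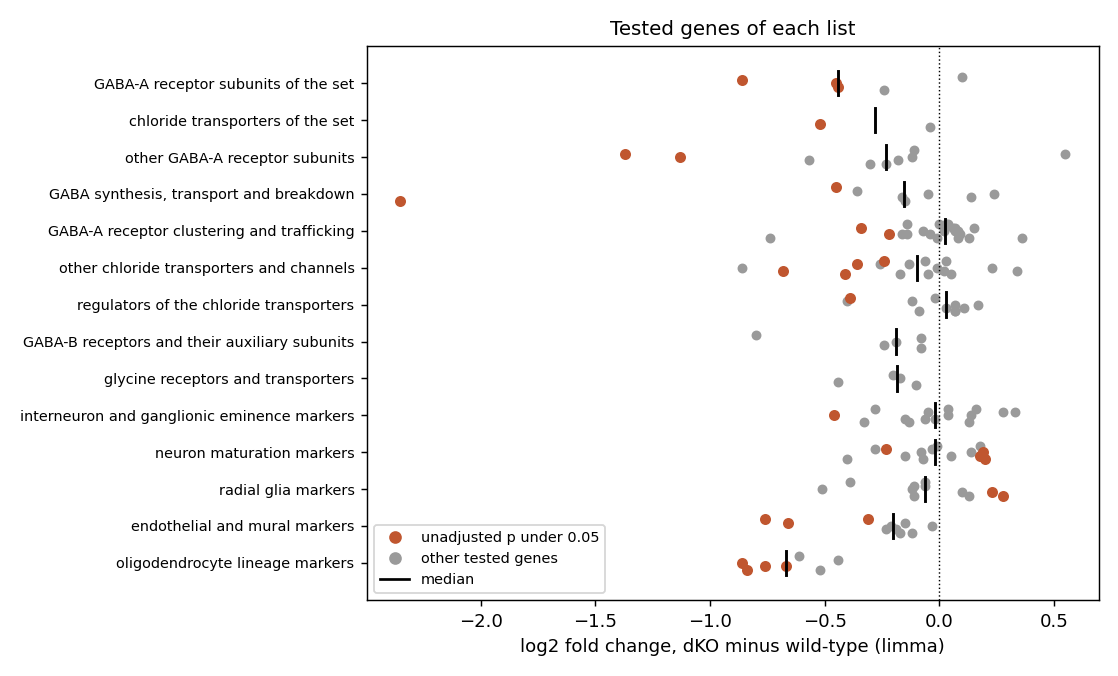
Log2 fold changes (dKO minus wild-type, limma, horizontal axis) of the tested genes in the 2 lists of members, the 7 pathway lists and 5 marker lists. Each point is a gene, orange points have an unadjusted p under 0.05 and vertical bars are medians. The median is -0.44 for the 5 subunits, -0.23 for the other subunits, 0.03 for clustering genes and -0.67 for oligodendrocyte lineage markers.

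Tested markers of the oligodendrocyte lineage and of vessels also had log2 fold changes below 0. All 7 oligodendrocyte lineage markers had a log2 fold change below 0, with 4 of the 7 at an unadjusted p under 0.05 (*Olig1*, *Olig2*, *Pdgfra* and *Gpr17*). Over all features, 49.4% were below 0 and 6.58% were lower at that level. Their summed level was 7857 to 13568 in wild-type libraries against 4377 to 7434 in dKO libraries, and none was at 0. *Olig1*, a transcription factor gene of this lineage, was the largest part of this sum. It had 7228, 4143 and 5243 normalized counts in wild-type and 3403, 3696 and 2187 in dKO libraries. Its log2 fold change was -0.84 (adjusted p = 0.345 from limma, 0.211 from DESeq2 and 0.028 from limma with the term for the *Xist* libraries). DESeq2 called 2 of the 7 markers, *Pdgfra* (adjusted p = 0.0475) and *Gpr17* (adjusted p = 0.0317), against 1.07% of all features. In 2 of the 7 markers, *Olig1* among them, the genotypes did not overlap, against 8.48% of all features lower without overlap. The summed level of 11 endothelial and mural markers was 12112 to 14001 in wild-type libraries against 9818 to 12046 in dKO libraries, with 10 of 10 tested markers below 0. *Rgs5* was the largest part of this sum, with 6083, 6307 and 6582 in wild-type and 5280, 5776 and 4390 in dKO libraries. The genotypes did not overlap for 3 of the 10 tested markers, *Rgs5* among them. At an unadjusted p under 0.05 from limma, 3 of the 10 were lower and 0 higher. DESeq2 called 1 of them, *Flt1*, whose genotypes overlapped. Its limma log2 fold change was -0.76 (adjusted p = 0.305 from limma and 0.0241 from DESeq2). Oligodendrocyte precursors and astroglia also carry GABA-A receptors and GABA transporters. The part of these markers in the lower values of *Gabrb1*, *Gabrg1*, *Slc6a11* and *Slc12a5* was not tested.

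The sum of neuronal markers was higher in every dKO library, while single markers went both ways. The summed level of 14 neuron maturation markers was 275203 to 302773 in wild-type libraries against 304143 to 314133 in dKO libraries. *Tubb3*, a tubulin of neurons, was the largest part of this sum and had a log2 fold change of 0.18 (adjusted p = 0.385 from limma), while the synaptic vesicle gene *Syt1* had -0.23 (adjusted p = 0.412). At an unadjusted p under 0.05 from limma, 3 markers were higher (*Tubb3*, *Map2* at 0.20 and *Dcx* at 0.19), against 4.92% of all features. At that level 1 was lower (*Syt1*), against 6.58% of all features. Of the 14 markers, 8 were below 0 and 6 above, and the median was -0.02. *Camk2a* (-0.40) and *Slc17a7* (-0.28) were among those below 0 but missed that level. The 11 radial glia markers summed to between 49537 and 61292 in wild-type and between 50038 and 61719 in dKO libraries. Of these 11, 7 had a log2 fold change below 0, while 2 were higher at an unadjusted p under 0.05 from limma and 0 lower. These 2 were *Pax6* (0.28) and *Vim* (0.23). Choroid plexus markers were near the detection limit, with sums between 44 and 167 and 6 of 10 under a mean of 10. The 6 erythroid markers with rows of their own summed to between 26438 and 34961 in wild-type and between 28909 and 38530 in dKO libraries. *Emx1*, *Tbr1* and *Neurod6*, markers of the dorsal cortex and its projection neurons, had at least 1125 normalized counts in every library. *Emx1* had 1127, 1329 and 1125 in wild-type and 1706, 1734 and 1740 in dKO libraries, so that every dKO library was higher. Its log2 fold change was 0.54, with an adjusted p of 0.09 from limma, 0.000515 from DESeq2 and 0.0378 with the term for the *Xist* libraries. *Tbr1* (0.25) and *Neurod6* (0.23) overlapped between the genotypes. The part of this difference in the values of the members was not tested.

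The genes whose pattern over the 6 libraries was closest to that of 2 members were found among 11636 named genes with a mean of at least 100. The measure was the root mean square difference of log2 values after each gene was centred on its own mean. For *Gabra3* these genes were *2610042L04Rik* (0.031), *Grap* (0.058) and *Tmem243* (0.060), beside a median of 0.289. For *Slc12a5* they were *Myrip* (0.055), the synaptic vesicle gene *Syn2* (0.072) and the endothelin receptor gene *Ednrb* (0.082), beside a median of 0.428. *Ednrb*, known from glia and progenitors, had 2502, 1373 and 2611 normalized counts in wild-type and 1517, 1808 and 1197 in dKO libraries, so that wild-type replicate 2 lay within the dKO range as it did for *Slc12a5*. No p-value belongs to this likeness, which was picked from all genes over 6 libraries.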

How the data were processed

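RNA was extracted from E18.5 cortex and libraries were made with a stranded polyA+ kit and sequenced as 150 bp paired-end reads. The submitters' processing notes name STAR 2.7.5a, SAMtools, Picard, FastQC, DESeq2 and the build mm10. The strand setting of the counting was not given in the sources used here. The authors had the reads assigned to FAST database genes and deposited a signal per gene, the read count divided by a DESeq2 size factor. In each library 100.0% of the values came out as whole reads (tolerance 0.1 reads) and 1 read was worth between 0.877 and 1.16 normalized counts. Features without a symbol (8.48% to 9.62% of the reads) were kept. Table positions of 22354 symbols (95.1%) matched GENCODE M21 genes.

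Genotypes, taken from the labels, were compared with limma 3.58.1 (lmFit, eBayes with trend and robust, R 4.3.3) on log2(normalized count + 1) for features with a mean of at least 10, which understates changes of low genes. Adjusted p-values are Benjamini-Hochberg values with a threshold of 0.05. The alternatives were edgeR 4.0.16 (quasi-likelihood) and DESeq2 1.42.0 on recovered reads, pseudocounts of 0.1 and 10, other filters, quantile and TMM scaling, limma without trend and robust, the replicate number as a block, a lowess transcript-length trend removed, and libraries left out. The term for *Xist* libraries (at least 100 normalized counts) and their omission were added after the data were seen. The fits were tested on simulated data. For single values, a two-sided exact permutation test was used (scipy 1.17.1). The labels do not say that libraries of a genotype came from separate litters, so p-values measure the spread between these samples.

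The members and lists were chosen with earlier results of these data known. Genes named are the members, list genes with an adjusted p under 0.05, the 2 genes of smallest p in each pathway list, subunit and GABA metabolism genes with a mean of at least 100, and the 3 genes most like 1 subunit and 1 transporter. Others, among them *Slc12a4*, *Clcn2*, *Slc12a7*, the kinases, *Gphn*, *Nlgn2*, *Xist*, *Ddx3y* and the markers named, were chosen after their values were seen. *Insyn1* and *Insyn2a* were read under older symbols. *Kctd12*, *Maf*, *Hbb-bs* and *Hbb-bt* had no row of their own. Values of a few genes that this rule names are not reported here, though list counts and medians include them. Features overlapping the members had at most 15.2 normalized counts.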

Additional observations from a re-analysis of the deposited data

How the results depend on the processing

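Over 20 alternatives, the log2 fold changes of *Gabra3*, *Gabra5*, *Gabrb1* and *Slc12a5* stayed below 0, and *Gabra3* with DESeq2 (-0.44, adjusted p = 0.0417) was the 1 member call made. With single libraries left out, *Gabra2* ran from -0.41 to 0.02, *Gabra3* from -0.52 to -0.38, *Gabra5* from -0.60 to -0.35, *Gabrb1* from -1.04 to -0.59, *Gabrb2* from -0.02 to 0.21, *Slc12a2* from -0.13 to 0.10 and *Slc12a5* from -0.79 to -0.36. Without both *Xist* libraries, *Gabra2* was at 0.01 and *Slc12a2* at 0.03. The number of members at an unadjusted p under 0.05 was 2 without both replicate 1 libraries, and 3 to 5 with single libraries left out. Without wild-type replicate 2, 4 members did not overlap. Fewer libraries separate more easily, and the share over all features (8.48% lower without overlap) is known here only for all libraries together. The *Slc12a5* to *Slc12a2* difference ran from -0.68 to -0.29 with single libraries left out and kept its sign. The share of *Gabra2* differed by 1.14 percentage points and by -0.552 to 3.78 with single libraries left out, the lowest value without dKO replicate 2.

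Over all features tested, 19 calls became 11 at a mean of at least 100, 7 without trend and robust, 202 with DESeq2, 9 with the length trend removed, 5 without both replicate 1 libraries, 79 with the term for the *Xist* libraries, 7 without those libraries and 7 to 46 with single libraries left out. At an unadjusted p under 0.05, 2181 features became 1219 without dKO replicate 3 and 1395 without wild-type replicate 3, and 2714 without wild-type replicate 2. The pathway lists had 2 calls with DESeq2 and 1 with the term for the *Xist* libraries. Their 11 genes at an unadjusted p under 0.05 became 4 without both replicate 1 libraries and 6 to 17 with single libraries left out. The cause of these changes was not tested.

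Deviations of libraries with the same replicate number correlated at 0.098, -0.228 and -0.079, which cannot show that these libraries shared nothing. Library deviations from the mean of each gene followed transcript length by replicate number. Their Spearman correlations with length were 0.219 in wild-type and 0.312 in dKO replicate 1. They were -0.102 and -0.224 in replicate 2, and -0.184 and -0.119 in replicate 3. The labels do not say what the numbers stand for. Under a replicate block, 9 features and 0 members were called, 3 members were at an unadjusted p under 0.05, the *Slc12a5* log2 fold change was -0.52 (adjusted p = 0.461) and the ratio difference -0.48. With the length trend removed as well, the block gave 5 calls.

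With 3 embryos a genotype, the 95% intervals of the members reached between 0.24 and 0.53 on either side on the log2 scale before any adjustment. Differences beyond these limits also missed the adjusted threshold, as for *Gabrb1* (-0.86, adjusted p = 0.3). The counts cover whole genes and no single exons or isoforms.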
